A study of Homo sapiens with 60 samples.

Results

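RNA of SW1783 cells was compared between a high and a low dose of a water extract of Bupleuri Radix, the dried root of Bupleurum used in Korean and Chinese herbal medicine. SW1783 is an established human line derived from an astrocytoma, a glial brain tumour. The libraries were taken by their titles: 3 with the high dose (500 µg/mL) and 3 with the low dose (20 µg/mL), each after 24 h, so 6 of the 60 libraries of the series. Also used were 3 libraries with the medium dose (100 µg/mL), 3 each with 500 and 20 µg/mL of Aconiti Lateralis Radix Preparata (processed root of aconite, coded in set 6 like Bupleuri Radix), and 3 vehicle libraries (0.1% DMSO in the sample labels, but 2% in the series' design text). The labels name no engineered allele, and all groups are the same SW1783 line. The labels number the replicates but do not say whether they were separate cultures, so every p-value measures a spread between libraries, which may be technical. In the main fit that spread was estimated over 57 libraries of 19 groups together. These include groups with Citri Unshius Pericarpium, Cimicifugae Rhizoma, Yijung-tang and Banhasasim-tang.

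Bone morphogenetic proteins (BMPs) are secreted ligands that bind serine/threonine kinase receptors, which phosphorylate SMAD1, SMAD5 and SMAD9. These enter the nucleus with SMAD4 and switch on the ID genes, whose products block basic helix-loop-helix transcription factors and are known in neural cells as brakes on differentiation. NF-kB is a family of dimeric factors that drives cytokine and adhesion genes and its own inhibitors. NRF2 answers electrophiles and oxidants by binding antioxidant response elements, and ATF4 answers amino acid shortage and other stresses. Members of all of these pathways differed between the doses.

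The 6 libraries held 21.8 to 25.12 M (mega) counts at the high dose and 21.53 to 23.39 M at the low dose. Mitochondrially encoded genes took 5.06 to 5.63% of the counts at the high dose and 5.32 to 5.57% at the low dose. No library of the extract stood apart: the root mean square deviation from the group mean was 0.0637 to 0.0723 on the log2 scale in the Bupleuri Radix libraries, against up to 0.152 in the series. Part of the glial markers were present. VIM, CD44, SOX9 and GLUL were among the 7 of 13 markers that passed the filter on low counts, which was set over all 57 libraries. SLC1A2 passed it too, with only 1 to 16 counts per library at the high dose and 5 to 10 at the low dose. GFAP had 1 to 3 counts per library at the high dose and 0 to 4 at the low dose, and AQP4, SOX2 and FABP7 had at most 1. Of the summed levels, given here in CPM (counts relative to the library total, scaled by TMM factors), the glial markers overlapped between the doses, at 7240 to 7608 CPM in high-dose and 7348 to 7390 CPM in low-dose libraries. Most of that sum was VIM and CD44, with at least 96407 and 58088 counts per library, while no other glial marker had more than 1788. The sum thus says little about the other glial markers. In these bulk samples, fewer cells of a type and less RNA per cell cannot be told apart.

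Of 17190 genes tested, 752 (4.37%) were called between the doses by edgeR's quasi-likelihood test at a Benjamini-Hochberg adjusted p under 0.05, with 330 (1.92%) higher and 422 (2.45%) lower at the high dose. Most differences were small. The median size of a called change was 0.26 on the log2 scale, 14 genes were at least 2-fold higher and 16 at least 2-fold lower. The median over all genes tested was 0.003. The count of 752 was 496 without high-dose replicate 1, 501 without high-dose replicate 2 and 501 without low-dose replicate 3. The genes named next are 15 rises and 14 falls, taken as the largest among called genes with a symbol, a mean of at least 5 CPM in the higher group and high-dose libraries that all lie beyond the low-dose libraries. That last condition fixes that their groups do not overlap. Of the named genes only CXCL8, DLX3 and SAMD11 changed at least 2-fold. Most of the called changes of at least 2-fold thus lay in genes that these conditions left out. How the counting treated strand is not stated in the labels or notes, so values are uncertain for named genes with an annotated gene on the opposite strand, among them LIF, ADAMTS6, HAS3, GREM1, ANGPTL4, SCG5, SLC7A11, SAMD11, ID2, ATOH8, UCA1, CRABP2 and UNC5B. CPM values are not divided by gene length, so levels are compared between libraries and never between genes.

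**Figure D1:**
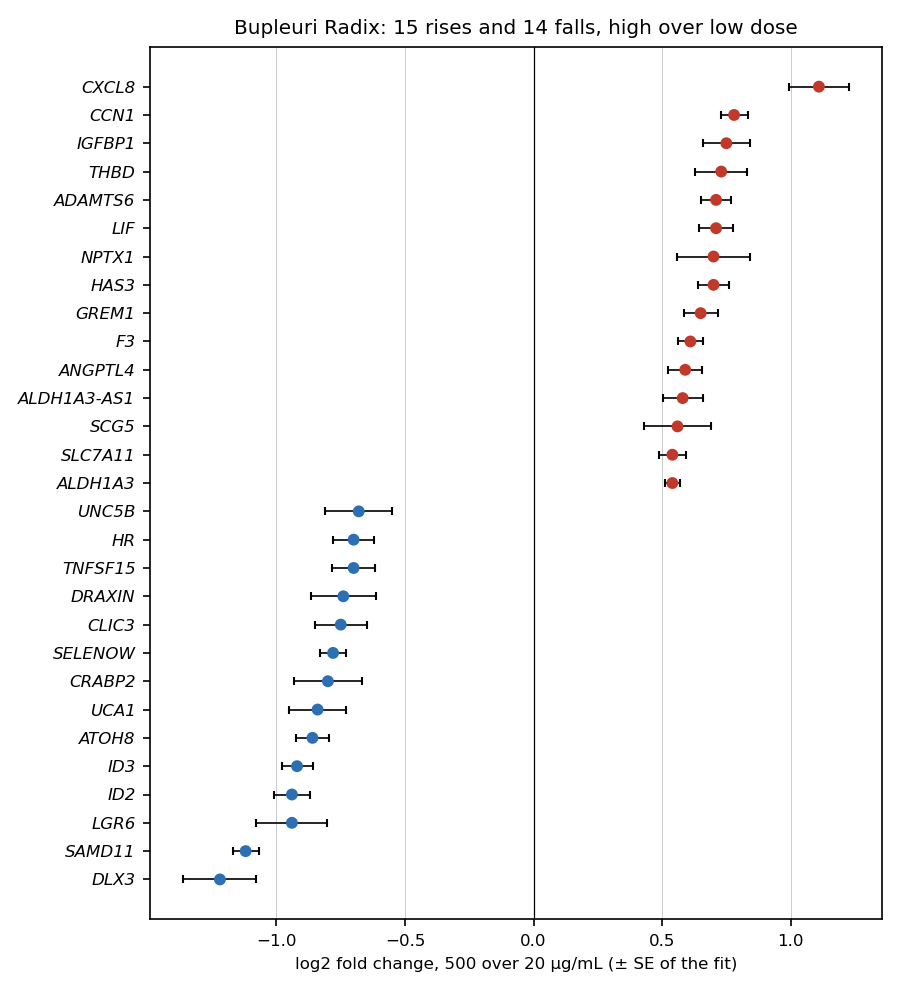
Log2 fold change of 500 over 20 µg/mL Bupleuri Radix for the 15 named rises (red) and the 14 named falls (blue), with 3 libraries per dose. Bars are the standard error of the edgeR fit to 57 libraries. The rises run from 0.54 (SLC7A11, ALDH1A3) to 1.11 (CXCL8) and the falls from -0.68 (UNC5B) to -1.22 (DLX3).

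BMP signalling genes held more falls by number than any other list. Of 28 members tested, 12 fell and 2 rose, and the list's median was -0.20 on the log2 scale. Over all genes tested, 2.45% fell and 1.92% rose, which is the share to set beside each list count below. The lists were chosen with earlier results of these data known. The falls included 6 of the 9 transcriptional targets (ID2, ID3, ID4, ATOH8, HEY1 and DLX3), SMAD9 and both inhibitory SMADs.

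ID3 (ENSG00000117318, chromosome 1, 23557918 to 23559794, minus strand, GRCh38) had 127, 115 and 129 CPM in high-dose libraries, against 235, 235 and 230 CPM in low-dose libraries. All 3 high-dose libraries lay far below the low-dose ones, and the log2 fold change was -0.92 ± 0.0603 (SE; edgeR adjusted p = 2.97e-16). ID2 (ENSG00000115738, chromosome 2, 8678845 to 8684453, plus strand) had 15.6, 15.9 and 14.4 CPM in high-dose libraries and 28.9, 30.8 and 28.3 CPM in low-dose libraries. The libraries of each dose kept within a narrow band, and the log2 fold change was -0.94 ± 0.0715 (edgeR adjusted p = 4.23e-14). ID4 had 2.34, 2.51 and 2.56 CPM at the high dose and 4.36, 5.31 and 4.69 CPM at the low dose, a log2 fold change of -0.96 ± 0.136 (edgeR adjusted p = 1.56e-06). ID1 behaved otherwise. It had 252, 230 and 248 CPM at the high dose and 273, 303 and 277 CPM at the low dose. The doses did not overlap, but the difference of -0.23 ± 0.0748 missed the threshold (edgeR adjusted p = 0.0768).

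DLX3, a homeobox factor of epithelial and bone development that responds to BMPs, showed the largest fall of the 29 named genes. It had 3.09, 2.17 and 3.16 CPM in high-dose libraries and 6.57, 6.29 and 6.85 CPM in low-dose libraries, a log2 fold change of -1.22 ± 0.142 (edgeR adjusted p = 1.42e-08). ATOH8, a basic helix-loop-helix factor known as a BMP target, had 18.3, 16.7 and 17.1 CPM in high-dose libraries and 29.1, 32.1 and 33.3 CPM in low-dose libraries. Its log2 fold change was -0.86 ± 0.0648 (edgeR adjusted p = 3.18e-14). HEY1, a repressor shared by the NOTCH and BMP pathways, averaged 5.81 ± 0.241 CPM at the high dose and 9.11 ± 0.75 CPM at the low dose (SD, n = 3 each; log2 fold change -0.65, edgeR adjusted p = 8.69e-05). The homeobox gene MSX1 was not called, with 5.16 ± 0.385 CPM at the high dose and 4.76 ± 0.389 CPM at the low dose (SD, n = 3 each). MSX2 had 0.277, 0.173 and 0.137 CPM at the high dose and 0.551, 0.468 and 0.552 CPM at the low dose, and was not called (edgeR adjusted p = 0.0995).

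Among the signal transducers, SMAD9 averaged 3.08 ± 0.359 CPM at the high dose and 4.57 ± 0.275 CPM at the low dose (SD, n = 3 each), a log2 fold change of -0.56 ± 0.12 (edgeR adjusted p = 0.00157). SMAD1 and SMAD5 were not called, at -0.01 ± 0.0796 and -0.08 ± 0.0524. SMAD6, an inhibitory SMAD that BMP signals induce and that restrains them, had 12, 10.8 and 11.4 CPM in high-dose libraries and 15.2, 17.9 and 15.7 CPM in low-dose libraries. The doses were well separated, with a log2 fold change of -0.51 ± 0.0665 (edgeR adjusted p = 2.34e-07). SMAD7, the other inhibitory SMAD, had a log2 fold change of -0.28 ± 0.066 (edgeR adjusted p = 0.00552), which missed the threshold without high-dose replicate 3 (adjusted p = 0.0902).

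The promoter of SMAD6 is shown for its SMAD palindrome (GTCTAGAC, a palindrome and so the same on both strands). Binding of any SMAD to it was not measured. RefSeq's promoter table holds 9 of the 12 fallen list members, and SMAD6 was the 1 among them with these letters. The search covered the 250 bases before the start. The letters occur in 63 of 27305 genes of the table, or 0.231%. The stretch is the plus strand of chr15:66702196-66702235 (RefSeq, GRCh38.p14), written 5′ to 3′ with the palindrome in capitals, which begins 12 bases before the start.
SMAD6: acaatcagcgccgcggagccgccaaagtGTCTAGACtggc

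GREM1, a secreted antagonist that binds BMP ligands, rose. It had 24.2, 23.9 and 23.8 CPM in high-dose libraries and 16.3, 15.4 and 14 CPM in low-dose libraries. Its log2 fold change was 0.65 ± 0.0666 (edgeR adjusted p = 4.71e-10). NOG (noggin), another such antagonist, averaged 0.909 ± 0.263 CPM at the high dose and 1.46 ± 0.12 CPM at the low dose (SD, n = 3 each) and was not called. RGMB, a membrane-bound BMP co-receptor, was the other member that rose, with 82.7, 73.5 and 77.2 CPM in high-dose libraries and 50.9, 58.5 and 53.1 CPM in low-dose libraries (log2 fold change 0.52, edgeR adjusted p = 4.07e-09). Among the receptors, BMPR1A, BMPR1B and ACVR1 were not called, with log2 fold changes of -0.04, -0.16 and -0.09. The ligand BMP4 averaged 8.47 ± 0.753 CPM at the high dose and 10.7 ± 0.686 CPM at the low dose (SD, n = 3 each; log2 fold change -0.33, edgeR adjusted p = 0.0181), and BMPR2 had a log2 fold change of -0.14 (edgeR adjusted p = 0.0285). Both calls were unstable: BMP4 missed the threshold without high-dose replicate 2 or 3 or low-dose replicate 3 (adjusted p = 0.0727, 0.128 and 0.139), and BMPR2 without high-dose replicate 2 or 3 or low-dose replicate 1 or 2 (adjusted p = 0.165, 0.126, 0.0554 and 0.218).

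**Figure D2:**
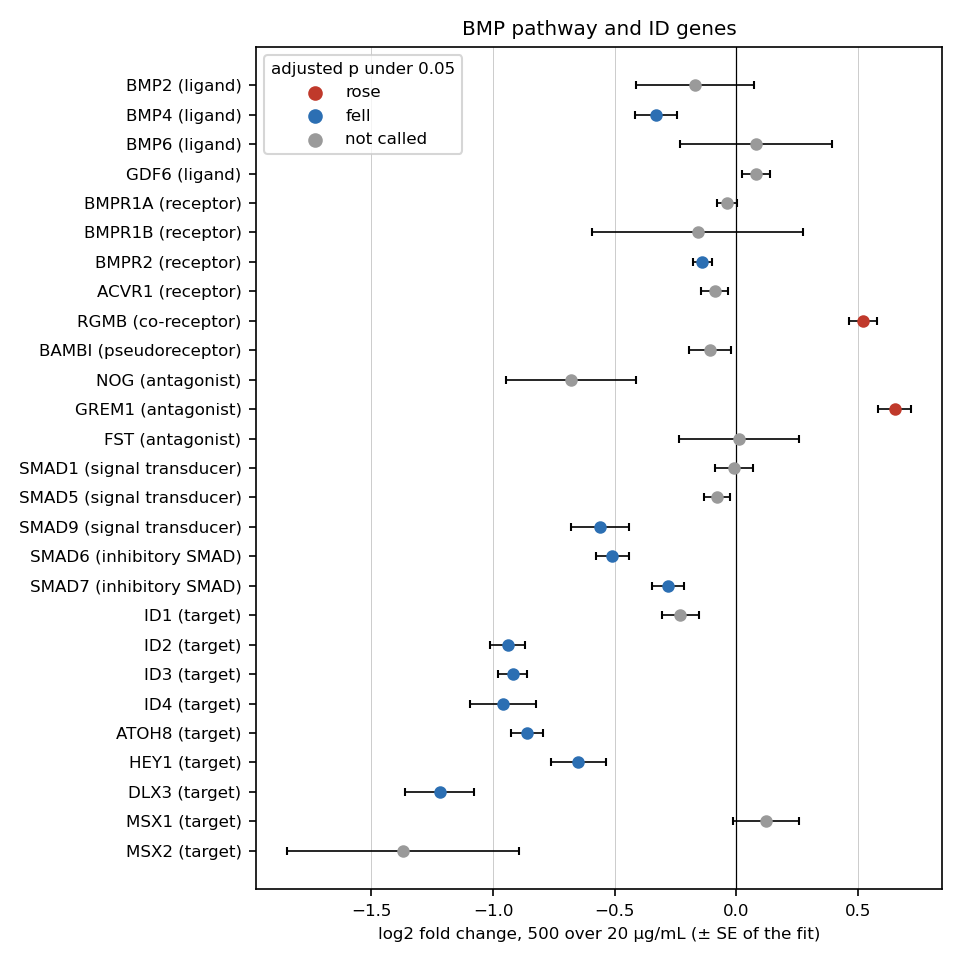
Log2 fold change of 500 over 20 µg/mL Bupleuri Radix for 27 of the 28 tested BMP pathway and ID genes, ordered by role from ligands to targets, with the standard error of the edgeR fit as bars (3 libraries per dose). Of the genes drawn, 11 fell (blue), 2 rose (red) and 14 were not called (grey).

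CXCL8 (ENSG00000169429, chromosome 4, 73740506 to 73743716, plus strand), the chemokine that draws neutrophils, had 9.59, 9.49 and 9.24 CPM in high-dose libraries and 4.5, 4.34 and 4.32 CPM in low-dose libraries. Its log2 fold change of 1.11 ± 0.116 was the largest of the named rises (edgeR adjusted p = 1.1e-09). CXCL12, the ligand of CXCR4, went the other way, with 13.8, 13.9 and 15.4 CPM in high-dose libraries and 18.3, 20.1 and 20.5 CPM in low-dose libraries (log2 fold change -0.45, edgeR adjusted p = 2.53e-05). These were the 2 called of 8 chemokines tested.

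Among 12 cytokines tested, 3 rose and 1 fell. LIF, a cytokine of the interleukin-6 family, had 34.7, 34.9 and 34.5 CPM in high-dose libraries and 21.8, 20.4 and 21.4 CPM in low-dose libraries. The replicates hardly differed, and the log2 fold change was 0.71 ± 0.0646 (edgeR adjusted p = 1.22e-11). TNFSF15, a TNF family ligand, had 7.61, 7.23 and 7.64 CPM in high-dose libraries and 12.4, 12.2 and 12 CPM in low-dose libraries (log2 fold change -0.70 ± 0.0849, edgeR adjusted p = 4.5e-08). IL1B averaged 5.34 ± 0.469 CPM at the high dose and 3.84 ± 0.142 CPM at the low dose, and TSLP 32.4 ± 1.22 CPM at the high dose and 25.8 ± 2.19 CPM at the low dose (SD, n = 3 each). Their edgeR adjusted p-values were 0.0118 and 0.00297. IL1B missed the threshold without high-dose replicate 1 or low-dose replicate 1 or 2 (adjusted p = 0.101, 0.0504 and 0.0619), and TSLP without low-dose replicate 3 (0.0637).

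Of 15 NF-kB subunits and feedback genes, 6 rose and 1 fell, with a median log2 fold change of 0.18. RELB, a subunit of the non-canonical branch, had 23.4, 20.7 and 21.4 CPM in high-dose libraries and 14.2, 15.8 and 15.4 CPM in low-dose libraries (log2 fold change 0.53 ± 0.0657, edgeR adjusted p = 8.26e-08). Its partner NFKB2 averaged 32.9 ± 0.497 CPM at the high dose and 25.8 ± 0.276 CPM at the low dose (SD, n = 3 each; log2 fold change 0.35, edgeR adjusted p = 4.4e-05). The feedback and survival genes BIRC3 and TRAF1 had log2 fold changes of 0.41 and 0.39 (edgeR adjusted p = 0.00296 and 0.00111). TNFAIP3, which encodes the inhibitor A20, had 0.26 ± 0.0631 (edgeR adjusted p = 0.0065) and missed the threshold without high-dose replicate 1 (0.068). IER3 had 1.55, 2.21 and 1.88 CPM at the high dose and 1.01, 1.19 and 1.33 CPM at the low dose (edgeR adjusted p = 0.0316). It missed the threshold without high-dose replicate 2 or 3 or low-dose replicate 1 or 2 (0.253, 0.08, 0.173 and 0.0961). The member that fell was TNFAIP2, with 26.4 ± 0.621 CPM at the high dose and 31.2 ± 0.934 CPM at the low dose (SD, n = 3 each; edgeR adjusted p = 0.00372).

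Among 12 inflammatory effectors, 3 rose and 1 fell. The adhesion molecule ICAM1 had 71.2, 67.3 and 70 CPM in high-dose libraries and 58, 52 and 53.2 CPM in low-dose libraries (log2 fold change 0.35 ± 0.0513, edgeR adjusted p = 2.2e-06). The soluble pattern receptor PTX3 averaged 48.7 ± 1.9 CPM at the high dose and 38.6 ± 1.56 CPM at the low dose (SD, n = 3 each; log2 fold change 0.33, edgeR adjusted p = 0.000432). PTGS2, the inducible cyclooxygenase, had 92.7, 83.7 and 86.5 CPM in high-dose libraries and 75.7, 72.2 and 70.2 CPM in low-dose libraries (log2 fold change 0.27, edgeR adjusted p = 0.000868). MMP3, a stromelysin, fell by 0.32 on the log2 scale (edgeR adjusted p = 0.0277) and missed the threshold without high-dose replicate 1 or low-dose replicate 2 or 3 (0.28, 0.0545 and 0.165).

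Promoters picked from the risen genes are shown with NF-kB letters (GGNNTTTCC on either strand) and AP-1 letters (TGANTCA on either strand) in capitals. They are from RefSeq's windows on GRCh38.p14, written 5′ to 3′ along the strand of the gene. All of those shown hold NF-kB letters. How many of the risen chemokine, cytokine and effector genes hold them was not counted. Of the 6 NF-kB list members that rose, 4 had a promoter in the table and 3 of these (NFKB2, TNFAIP3 and BIRC3) held the NF-kB letters within 250 bases before the start. The share over all genes in the table was 6.69% for the NF-kB letters and 8.06% for the AP-1 letters. The stretches are chr4:73740423-73740502 (plus) for CXCL8, chr1:94541931-94541990 (minus) for F3, chr6:137867183-137867222 (plus) for TNFAIP3, chr19:10270920-10270959 (plus) for ICAM1 and chr11:102317271-102317310 (plus) for BIRC3.
CXCL8: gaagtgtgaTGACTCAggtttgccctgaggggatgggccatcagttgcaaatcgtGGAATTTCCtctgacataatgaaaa
F3: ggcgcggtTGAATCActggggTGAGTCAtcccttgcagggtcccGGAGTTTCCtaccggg
TNFAIP3: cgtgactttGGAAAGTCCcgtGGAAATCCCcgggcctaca
ICAM1: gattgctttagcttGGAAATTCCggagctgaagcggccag
BIRC3: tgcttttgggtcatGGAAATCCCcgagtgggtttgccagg
In CXCL8 the AP-1 letters begin 137 and the NF-kB letters 91 bases before the start, and in F3 the AP-1 letters begin 223 and 210 and the NF-kB letters 187 bases before it. TNFAIP3 holds NF-kB letters in 2 places, beginning 67 and 55 bases before the start. A match of letters is a description of the sequence, with no measurement of binding.

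CCN1, F3 and THBD were among the named rises. CCN1 (ENSG00000142871, chromosome 1, 85580761 to 85583962, plus strand), a matricellular protein and a target of YAP and TEAD, had 421, 383 and 425 CPM in high-dose libraries and 250, 231 and 236 CPM in low-dose libraries. The gap between the doses was several times the spread of the replicates, with a log2 fold change of 0.78 ± 0.0524 (edgeR adjusted p = 6.58e-16). F3, tissue factor, which starts the clotting cascade, had 197, 196 and 191 CPM in high-dose libraries and 133, 126 and 124 CPM in low-dose libraries (log2 fold change 0.61 ± 0.0483, edgeR adjusted p = 1.49e-13). THBD, thrombomodulin, an anticoagulant receptor, had 10.1, 9.18 and 10.2 CPM in high-dose libraries and 6.11, 5.82 and 5.93 CPM in low-dose libraries (log2 fold change 0.73 ± 0.101, edgeR adjusted p = 9.61e-07). SERPINB2, a plasminogen activator inhibitor, averaged 34.9 ± 2.8 CPM at the high dose and 26.6 ± 1.5 CPM at the low dose (SD, n = 3 each; edgeR adjusted p = 4.74e-06). Of the 14 coagulation genes tested, 4 rose and 1 fell, namely F2RL1, a protease-activated receptor, at -0.26 (edgeR adjusted p = 0.000114).

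Of 18 YAP and TEAD targets, 7 rose, namely CCN1, F3, AXL, NUAK2, FJX1, NT5E and DLC1. The number of targets called in either direction was 4 without high-dose replicate 3 and 4 without low-dose replicate 3, 11 with only the libraries of code set 6 and 12 with only the groups compared. The calls of CCN1, F3 and AXL held without each library in turn, while NUAK2, FJX1, NT5E and DLC1 lost theirs without at least 1 library, such as low-dose replicate 3 for NT5E (adjusted p = 0.0574) and high-dose replicate 3 for DLC1 (0.0522). AXL, a receptor tyrosine kinase, rose by 0.13 ± 0.0251 on the log2 scale (edgeR adjusted p = 0.000645). Among 29 SRF targets and immediate early genes, 8 rose and 2 fell. PHLDA1 averaged 283 ± 9.99 CPM at the high dose and 219 ± 9.13 CPM at the low dose (SD, n = 3 each; log2 fold change 0.37, edgeR adjusted p = 2.14e-09). FOSL1, an AP-1 subunit, averaged 206 ± 10.1 CPM at the high dose and 155 ± 4.39 CPM at the low dose (log2 fold change 0.41, edgeR adjusted p = 0.00318), and JUN, another subunit, rose by 0.23 (edgeR adjusted p = 0.000145). MYC averaged 57.2 ± 4.75 CPM at the high dose and 45.3 ± 2.17 CPM at the low dose (log2 fold change 0.34, edgeR adjusted p = 0.00067). VCL, a focal adhesion protein, was 1 of the 2 that fell, by 0.13 (edgeR adjusted p = 0.00338). Of 9 EGF receptor genes, EGFR and its ligand HBEGF rose by 0.20 and 0.33 and the feedback inhibitor ERRFI1 fell by 0.23 (edgeR adjusted p = 0.00151, 0.00135 and 4.4e-05).

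NRF2 targets rose broadly: 13 of 26 were called and all 13 were higher at the high dose, while the list's median was 0.18. NQO1, a quinone reductase, had 212, 218 and 214 CPM in high-dose libraries and 154, 157 and 151 CPM in low-dose libraries. Its log2 fold change was 0.48 ± 0.0518 (edgeR adjusted p = 2.33e-09). SLC7A11, the cystine importer that feeds glutathione synthesis, had 185, 196 and 178 CPM in high-dose libraries and 129, 134 and 124 CPM in low-dose libraries (log2 fold change 0.54 ± 0.0528, edgeR adjusted p = 1.65e-10). HMOX1, heme oxygenase, had 86.7, 77.1 and 83 CPM in high-dose libraries and 62.6, 58.8 and 61 CPM in low-dose libraries (log2 fold change 0.44 ± 0.0458, edgeR adjusted p = 1.07e-09). The ferritin chains FTH1 and FTL, which store iron, rose by 0.42 and 0.35, and TXNRD1, a thioredoxin reductase, by 0.33 (edgeR adjusted p = 8.18e-07, 4.79e-06 and 2.35e-06). The subunits of the glutathione-making ligase, GCLC and GCLM, rose by 0.23 and 0.25 (edgeR adjusted p = 0.000803 and 7.88e-05). The smallest rises were less stable: GSR, glutathione reductase, and TKT, transketolase, at 0.13 and 0.17, missed the threshold without high-dose replicate 3 (adjusted p = 0.0703 and 0.0637) or low-dose replicate 2 (0.155 and 0.0592), and GSR also without high-dose replicate 1 or low-dose replicate 1 (0.131 and 0.0641). With HMOX1 and both ferritins, 3 of 9 iron handling genes rose. Among 8 aryl hydrocarbon receptor genes, 4 rose. Besides NQO1 they were TIPARP (log2 fold change 0.42, edgeR adjusted p = 2.19e-09), CYP1B1 (0.29, 2.1e-08) and the repressor AHRR (0.17, 0.0475). AHRR missed the threshold without high-dose replicate 2 or 3 or low-dose replicate 2 or 3 (0.246, 0.112, 0.13 and 0.376).

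The ATF4 list held 31 tested genes, of which 6 rose, and the median was 0.14. STC2, a secreted glycoprotein, had 658, 669 and 671 CPM in high-dose libraries and 516, 507 and 508 CPM in low-dose libraries (log2 fold change 0.38 ± 0.0348, edgeR adjusted p = 1.22e-11). ASNS, asparagine synthetase, rose by 0.27, and TRIB3, a pseudokinase that feeds back on ATF4, by 0.35 (edgeR adjusted p = 1.05e-06 and 0.000113). SLC7A11 belongs to this list too. ATF4 itself averaged 118 ± 5.34 CPM at the high dose and 104 ± 1.73 CPM at the low dose (SD, n = 3 each; log2 fold change 0.18, edgeR adjusted p = 0.00347), and its call was lost without high-dose replicate 3 (0.0659). GDF15, a stress cytokine, averaged 5.77 ± 0.916 CPM at the high dose and 4.14 ± 0.323 CPM at the low dose (SD, n = 3 each; edgeR adjusted p = 0.0137), and its call was lost without high-dose replicate 1 or 3 or low-dose replicate 2 (0.0627, 0.14 and 0.111). None of 22 ER chaperone genes was called by edgeR with all libraries or by DESeq2, although 5 were higher at an unadjusted p under 0.05. With only the groups compared edgeR called 2 of them, and it called 1 with the replicate number as a block, 1 with code set 6 alone and 1 without low-dose replicate 2. Of 20 cytosolic aminoacyl-tRNA synthetases 2 rose (MARS1 by 0.12 and YARS1 by 0.15). MARS1 overlaps DDIT3 on the opposite strand and lost its call without high-dose replicate 2 or low-dose replicate 2 (0.0778 and 0.0689).

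Letters that match response elements are shown in capitals for 3 risen genes. They are those of the antioxidant response element (TGACNNNGC, either strand) in TXNRD1 and GCLM, and of the amino acid response element (TGATGNAA, either strand) in ASNS. Binding of any factor to them was not measured. Of the 13 risen NRF2 targets, 9 were in the promoter table and 2 held the antioxidant letters, against 13.2% of all genes in the table. Of the 6 risen ATF4 list genes, 5 were in the table and 1 held the amino acid response letters, against 3.89%. The stretches are chr12:104215665-104215704 (plus), chr1:93909440-93909479 (minus) and chr7:97872452-97872491 (minus), from RefSeq on GRCh38.p14, and the capitals begin 99, 34 and 68 bases before the start.
TXNRD1: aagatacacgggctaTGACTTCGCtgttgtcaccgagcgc
GCLM: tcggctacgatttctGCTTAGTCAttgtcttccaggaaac
ASNS: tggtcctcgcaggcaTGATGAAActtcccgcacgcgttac

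Selenoproteins split. SELENOW (ENSG00000178980, chromosome 19, 47778572 to 47784686, plus strand), a small redox protein that carries selenocysteine, had 38.5, 36.6 and 37.8 CPM in high-dose libraries and 67.6, 62.7 and 63.8 CPM in low-dose libraries. Its log2 fold change was -0.78 ± 0.0499 (edgeR adjusted p = 1.13e-16). GPX1, a glutathione peroxidase, had 141, 135 and 139 CPM in high-dose libraries and 172, 177 and 189 CPM in low-dose libraries (log2 fold change -0.38 ± 0.0516, edgeR adjusted p = 7.54e-07). TXNRD1, also a selenoprotein, rose as given above. The other called member of the 17 was SEPHS2, which makes the selenium donor, at 0.20 (edgeR adjusted p = 0.0467). Its call was lost without high-dose replicate 1, 2 or 3 or low-dose replicate 1 or 2 (0.106, 0.137, 0.105, 0.144 and 0.367). Of 7 metallothionein and zinc genes, MT1E and MT1X fell by 0.51 and 0.37 (edgeR adjusted p = 2.08e-05 and 0.0181). They belong to a family of near-identical copies, so their estimates are uncertain, and MT1X lost its call without high-dose replicate 1 or 2 or low-dose replicate 2 or 3 (0.0708, 0.12, 0.109 and 0.105).

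**Figure D3:**
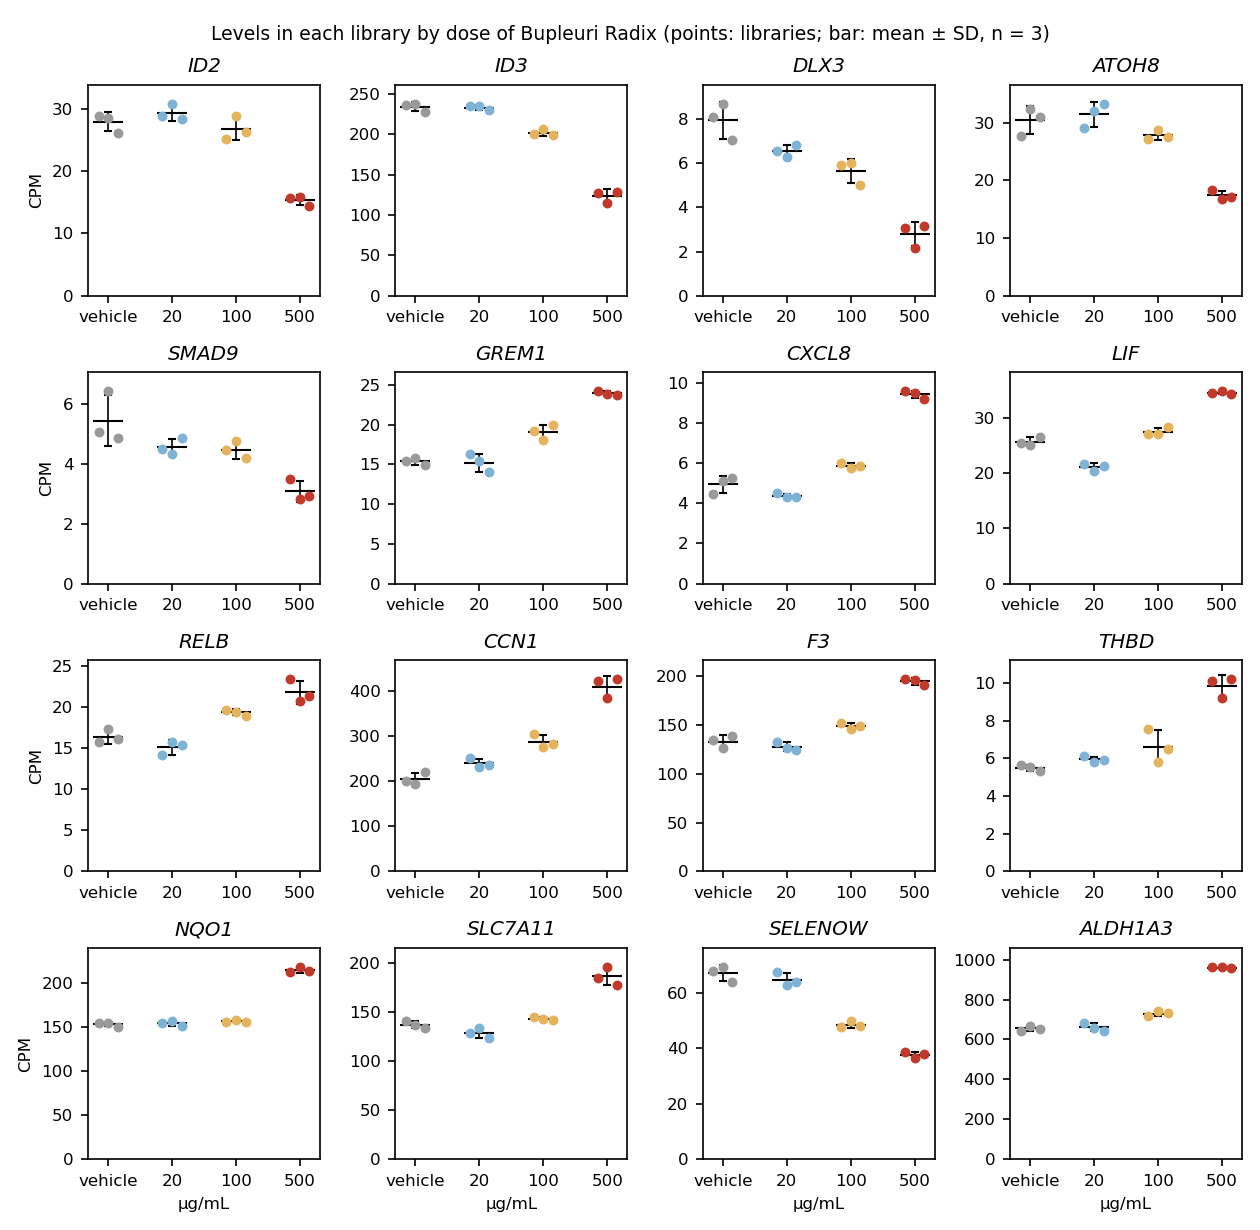
CPM of 16 genes in each library (points) with the mean ± SD of 3 libraries (bars), for the vehicle and 20, 100 and 500 µg/mL Bupleuri Radix. Each panel has its own axis from 0. SELENOW averaged 64.7 CPM at 20, 48.5 at 100 and 37.6 at 500 µg/mL, while NQO1 averaged 154, 157 and 215 CPM at the same doses.

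Retinoic acid genes were the list with the largest share of falls, 5 of 10 tested, beside 1 rise. ALDH1A3 (ENSG00000184254, chromosome 15, 100877714 to 100916626, plus strand), which makes retinoic acid from retinaldehyde, had 961, 963 and 957 CPM in high-dose libraries and 681, 658 and 643 CPM in low-dose libraries. The high-dose libraries were nearly identical, with a log2 fold change of 0.54 ± 0.0301 (edgeR adjusted p = 6.66e-19). ALDH1A3-AS1, which overlaps it on the opposite strand, had 0.58 ± 0.0775 (edgeR adjusted p = 4.02e-07), and reads of the pair may not have been told apart. CRABP2, a carrier that hands retinoic acid to its receptors, had 3.01, 2.43 and 3.16 CPM in high-dose libraries and 4.82, 4.72 and 5.47 CPM in low-dose libraries (log2 fold change -0.80 ± 0.133, edgeR adjusted p = 3.33e-05). STRA6, the membrane receptor for the retinol carrier, averaged 74.3 ± 3.73 CPM at the high dose and 97.1 ± 3.71 CPM at the low dose (SD, n = 3 each; edgeR adjusted p = 1.67e-06). DHRS3, a retinaldehyde reductase, and RARA, a retinoic acid receptor, fell by 0.43 and 0.31 (edgeR adjusted p = 2.23e-05 and 0.00305). RARG fell by 0.21 (edgeR adjusted p = 0.0301), a call lost without high-dose replicate 2 or 3 or low-dose replicate 1 or 3 (0.273, 0.0579, 0.14 and 0.163).

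Of 18 WNT receptor and feedback genes, 5 fell and 1 rose. LGR6, a receptor for R-spondins, which strengthen WNT signals, had 2.77, 2.77 and 3.11 CPM in high-dose libraries and 5.65, 5.44 and 5.52 CPM in low-dose libraries (log2 fold change -0.94 ± 0.138, edgeR adjusted p = 2.82e-06). The WNT receptor FZD1 had 57, 52.8 and 53.9 CPM in high-dose libraries and 67.4, 69.5 and 69.9 CPM in low-dose libraries (log2 fold change -0.34, edgeR adjusted p = 2.53e-09). TNFRSF19 fell by 0.28 (edgeR adjusted p = 0.000166), and the ligand WNT5B rose by 0.28 (edgeR adjusted p = 0.00103). TCF7, a nuclear effector, fell by 0.29 (edgeR adjusted p = 0.00404), a call lost without high-dose replicate 2 (0.0636). Of 8 NOTCH genes, HEY1 and NOTCH3 fell, and NOTCH3 lost its call without high-dose replicate 2 (0.0521).

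TGF-beta ligands and targets went down in 7 of 17 cases and up in 2. PMEPA1, a feedback inhibitor, averaged 159 ± 1.7 CPM at the high dose and 185 ± 8.31 CPM at the low dose (SD, n = 3 each; log2 fold change -0.22, edgeR adjusted p = 9.16e-06). TPM1, a tropomyosin, fell by 0.16 (edgeR adjusted p = 0.000768). Of the 9 called, 5 were called without high-dose replicate 2. Among 28 matrix genes, 6 fell and THBS1 rose (log2 fold change 0.24, edgeR adjusted p = 2.75e-05), and without low-dose replicate 1 the count of 7 was 4. ELN, elastin, had 1.7, 1.99 and 2.52 CPM in high-dose libraries and 3.86, 3.87 and 4.37 CPM in low-dose libraries. It showed the largest change of the list, a log2 fold change of -0.97 ± 0.153 (edgeR adjusted p = 1.45e-05). THBS2 fell by 0.19 (edgeR adjusted p = 2.39e-06). Of 15 metalloproteinases and inhibitors, 3 rose and 3 fell, and without low-dose replicate 2 the 6 calls were 3. ADAMTS6, a secreted protease, had 28, 29.1 and 28.6 CPM in high-dose libraries and 18.1, 17.6 and 16.7 CPM in low-dose libraries (log2 fold change 0.71 ± 0.0585, edgeR adjusted p = 5.32e-13). TIMP3, a matrix-bound inhibitor, averaged 36.3 ± 1.44 CPM at the high dose and 47.5 ± 0.995 CPM at the low dose (SD, n = 3 each; log2 fold change -0.39, edgeR adjusted p = 5.88e-08).

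Of 9 fibroblast and mesenchymal markers, 4 were lower at the high dose, against 2.45% of all genes tested. PDGFRB fell by 0.26, PDGFRA by 0.24, FAP by 0.19 and COL1A1, itself a matrix gene, by 0.18 (edgeR adjusted p = 5.7e-05, 0.00526, 0.00322 and 0.00697). The summed level was 5304 to 5614 CPM in high-dose and 5948 to 6203 CPM in low-dose libraries. Most of that sum was COL1A1 and COL1A2, with at least 62766 and 39749 counts per library, while no other marker had more than 9895. COL1A1 lost its call without high-dose replicate 3 or low-dose replicate 1 (0.0707 and 0.0636). None of the 9 was at 0. The part of these markers in the matrix and TGF-beta results was not tested. Among the other markers, TUBB3 and SYT1 fell of 6 neuronal genes, KRT18 of 4 epithelial genes and SLC1A3 of 7 glial genes, by 0.27, 0.21, 0.30 and 0.21 (edgeR adjusted p = 0.000273, 0.0154, 2.39e-06 and 0.0242). SLC1A3 lost its call without any 1 of the 6 libraries (adjusted p = 0.0514 to 0.128), and SYT1 without high-dose replicate 2 or 3 or low-dose replicate 2 or 3 (0.2, 0.0592, 0.0793 and 0.109). The summed levels were 155 to 163 CPM at the high dose and 179 to 190 CPM at the low dose for the neuronal list, and 176 to 194 CPM at the high dose and 225 to 237 CPM at the low dose for the epithelial list. TUBB3 had at least 2004 counts per library, while no other neuronal marker had more than 753. Most of the epithelial sum was KRT18, with at least 3716 counts per library, while no other epithelial marker had more than 436. DCX was at 0, and EPCAM and CDH1 had at most 1 count. None of the 4 oligodendrocyte, 3 microglial and 3 endothelial genes tested was called by edgeR or DESeq2, with 2 microglial genes lower at an unadjusted p under 0.05 and 1 microglial gene called without low-dose replicate 3. MOG, OLIG1, AIF1 and P2RY12 were at 0 in all 6 libraries. Their part in any result was not tested.

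Several of the named genes lay outside these pathways. SAMD11 (ENSG00000187634, chromosome 1, 923928 to 944581, plus strand), a nuclear protein with a sterile alpha motif, had 59.1, 53.1 and 55.8 CPM in high-dose libraries and 125, 119 and 123 CPM in low-dose libraries, a log2 fold change of -1.12 ± 0.0501 (edgeR adjusted p = 1.36e-22, the smallest of this comparison). IGFBP1, a carrier of insulin-like growth factors, had 39.2, 33.2 and 30.4 CPM in high-dose libraries and 21.2, 20.9 and 19.3 CPM in low-dose libraries (log2 fold change 0.75 ± 0.0914, edgeR adjusted p = 5.54e-08). HAS3, a hyaluronan synthase, had 49.3, 49.3 and 46 CPM in high-dose libraries and 30.2, 31.1 and 27.7 CPM in low-dose libraries (log2 fold change 0.70 ± 0.0618, edgeR adjusted p = 5.47e-12). ANGPTL4, which inhibits lipoprotein lipase, averaged 25.4 ± 1.06 CPM at the high dose and 16.9 ± 0.666 CPM at the low dose (SD, n = 3 each; edgeR adjusted p = 4.75e-09). NPTX1, a secreted neuronal pentraxin, averaged 6.12 ± 0.376 CPM at the high dose and 3.77 ± 0.454 CPM at the low dose, and DRAXIN, an axon guidance protein, 3.08 ± 0.156 CPM at the high dose and 5.14 ± 0.401 CPM at the low dose (SD, n = 3 each; edgeR adjusted p = 0.000887 and 5.98e-05). UNC5B, a netrin receptor, had a log2 fold change of -0.68 ± 0.13 (edgeR adjusted p = 0.000307). SCG5, a chaperone of a prohormone convertase, had 0.56 ± 0.129 (edgeR adjusted p = 0.00381), a call that was lost without high-dose replicate 1, where its log2 fold change was 0.45. The long noncoding RNA UCA1, the chloride channel family member CLIC3 and the corepressor HR had log2 fold changes of -0.84, -0.75 and -0.70 (edgeR adjusted p = 3.25e-07, 5.89e-07 and 9.22e-09).

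Metabolic, proliferation and other lists held from 1 call (cholesterol synthesis) to 5 calls (glycolysis and hypoxia) each. Over all genes tested, 4.37% were called, 1.92% higher and 2.45% lower. Several lists, such as fatty acid synthesis with 3 of 11, lay above that share, while cholesterol synthesis with 1 of 25 lay near it. In fatty acid synthesis 3 of 11 genes fell, SCD by 0.18, SREBF1 by 0.25 and ACSL3 by 0.15, and in cholesterol synthesis 1 of 25 fell (edgeR adjusted p = 0.000327, 0.00207 and 0.0048 for SCD, SREBF1 and ACSL3). In the glycolysis and hypoxia list 3 of 26 rose, among them VEGFA and PFKP by 0.22 and 0.16, and 2 fell, PFKFB4 by 0.30 and P4HA1 by 0.18 (edgeR adjusted p = 9.54e-07, 0.00021, 8.47e-05 and 0.00233). Of 15 glucose-sensor and FOXO genes, IGFBP1 and FBXO32 rose and FOXO1 fell, FBXO32 by 0.39 and FOXO1 by 0.44 (edgeR adjusted p = 4.35e-08 and 8.31e-05). Among 19 p53 targets, GADD45A and TNFRSF10B rose by 0.46 and 0.19 (edgeR adjusted p = 2.35e-07 and 0.000986). Of 25 mitosis genes, 3 fell, of which KIF20A (log2 fold change -0.20, edgeR adjusted p = 0.00132) was called under every alternative, and 1 was called without high-dose replicate 1 or 3 or low-dose replicate 1 or 3. In the lysosome list 1 of 22 rose (SQSTM1) and 2 fell (NPC1 and TFEB), and TFEB lost its call without high-dose replicate 2 or low-dose replicate 2 or 3 (0.328, 0.16 and 0.0533). Of 11 tubulins 2 fell, and of these TUBA4A lost its call without high-dose replicate 2 or low-dose replicate 2 (0.0561 and 0.0646). Of 15 heat shock chaperones 1 rose (HSP90AB1, by 0.11). Among 9 glucocorticoid targets 1 fell and CRISPLD2 rose, a call lost without high-dose replicate 2 or 3 or low-dose replicate 2 or 3 (0.102, 0.118, 0.211 and 0.0658). Of 23 interferon genes, IFIT1 fell (edgeR adjusted p = 0.0172), a call lost without high-dose replicate 1 or low-dose replicate 3 (0.162 and 0.15).

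The 27 proteasome, 28 ribosomal protein and 27 nuclear oxidative phosphorylation genes, the 26 DNA replication genes, the 17 circadian genes and the 8 LXR targets held no edgeR call in the fit to all libraries. With only the groups compared edgeR called 3 DNA replication and 1 proteasome genes, with code set 6 alone 2 circadian, 1 DNA replication and 1 proteasome genes, and with the replicate number as a block 1 DNA replication gene. DESeq2 called 1 DNA replication gene and none of the others. At an unadjusted p under 0.05 there were 1 proteasome and 1 oxidative phosphorylation gene higher, no ribosomal protein gene in either direction, 1 DNA replication gene higher and 5 lower, 4 circadian genes lower and 1 LXR target lower. The 13 mitochondrially encoded protein genes held no call by edgeR or DESeq2 and none at an unadjusted p under 0.05, although edgeR called 3 of them with no filter on low counts, while both mitochondrial ribosomal RNAs fell: MT-RNR1 and MT-RNR2 by 0.30 and 0.27 (edgeR adjusted p = 0.0166 and 0.0176). MT-RNR2 had 7923 to 8521 CPM in high-dose libraries and 9646 to 9927 CPM in low-dose libraries. These 2 genes were looked at after their values were seen, and since the libraries were made for mRNA, what carries ribosomal RNA into them was not tested.

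**Figure D4:**
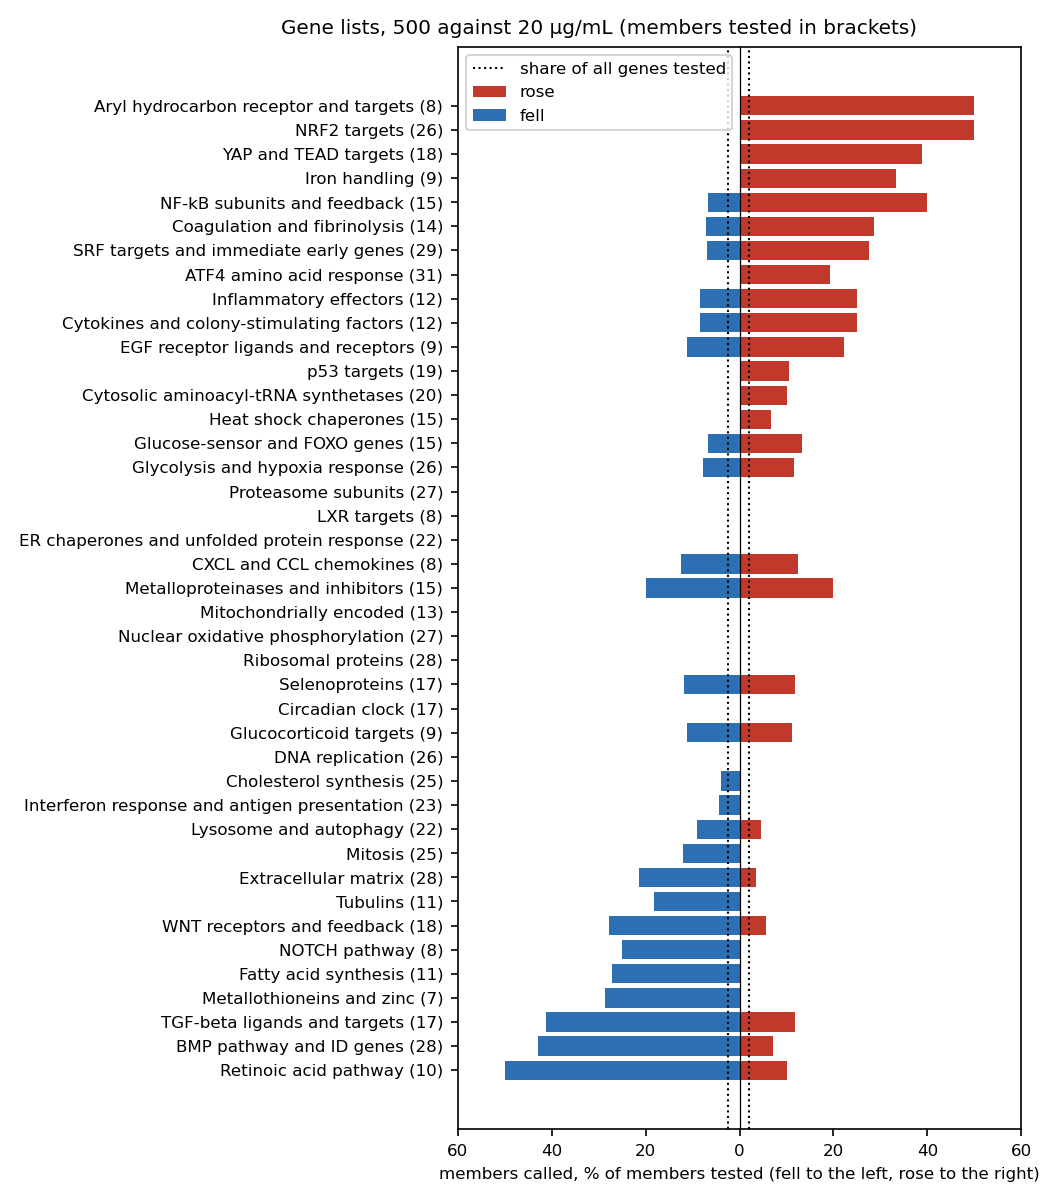
Share of the tested members of each gene list that rose (red, to the right) or fell (blue, to the left) at 500 against 20 µg/mL Bupleuri Radix, edgeR adjusted p under 0.05, with the number tested in brackets. Dotted lines mark the share among all genes tested, 1.92% higher and 2.45% lower; NRF2 targets (13 of 26) and retinoic acid genes (5 of 10) lie farthest out in their directions among lists of at least 10 genes.

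More genes were called at the upper than at the lower dose step, though the difference between the steps was not tested. Between 100 and 500 µg/mL, 283 genes (1.65%) were called, 98 (0.57%) higher and 185 (1.08%) lower at the high dose, whereas between 20 and 100 µg/mL edgeR called 7 (0.0407%), with 963 at an unadjusted p under 0.05. The 7 were CEMIP, RELB, LIF, CCN1 and ALDH1A3, which were higher at the medium dose (5 genes, 0.0291%), and SELENOW and SAMD11, which were lower (2 genes, 0.0116%). Their number was 2 without low-dose replicate 2 or medium-dose replicate 2, and 3 without low-dose replicate 3 or medium-dose replicate 1 or 3. CEMIP, a hyaluronidase, averaged 34.7 ± 0.963 CPM at the medium and 28.5 ± 1.72 CPM at the low dose (SD, n = 3 each; log2 fold change 0.29, edgeR adjusted p = 0.0403). SELENOW averaged 64.7 ± 2.6 CPM at 20, 48.5 ± 1.09 CPM at 100 and 37.6 ± 0.985 CPM at 500 µg/mL (SD, n = 3 each), and its steps were -0.42 and -0.37 on the log2 scale. For ID3, with 233 ± 3.18, 202 ± 4.1 and 124 ± 7.68 CPM at the same doses, the steps were -0.21 (edgeR adjusted p = 0.335) and -0.71 (4.46e-12). NQO1 averaged 154 ± 3.07, 157 and 215 ± 3.24 CPM at these doses. CXCL8 averaged 4.39 ± 0.101, 5.89 ± 0.132 and 9.44 ± 0.179 CPM, with steps of 0.43 (edgeR adjusted p = 0.446) and 0.68 (6.2e-05). The lower and upper steps share the medium-dose libraries.

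Against the vehicle the code set, the DMSO and the extract cannot be told apart, since the vehicle's codes fall in another set. At the low dose edgeR called 13 genes (0.0756%), 3 (0.0175%) higher and 10 (0.0582%) lower than in the vehicle, with 1110 at an unadjusted p under 0.05. The number was 4 without low-dose replicate 2, 3 without low-dose replicate 3, 6 without vehicle replicate 1 and 5 without vehicle replicate 2. Among the 10, PTGS2 averaged 72.7 ± 2.78 CPM at the low dose and 99.4 ± 3.68 CPM in the vehicle (SD, n = 3 each; log2 fold change -0.45, edgeR adjusted p = 1.2e-06), and it was also lower at the high dose, at 87.6 ± 4.57 CPM, than in the vehicle (log2 fold change -0.18, edgeR adjusted p = 0.0299). The rise of PTGS2 between the doses thus ended below the vehicle. AHRR and DLC1, also among the 10, did not end above the vehicle either. AHRR averaged 42.4 ± 3.41 CPM at the low dose, 47.9 ± 2.14 at the high dose and 50.6 ± 1.54 in the vehicle. DLC1 averaged 63 ± 0.571, 71 ± 2.43 and 73 ± 3.66 CPM in the same order (SD, n = 3 each). PFKFB4, a regulator of glycolysis, averaged 27.2 ± 0.902 CPM at the high dose and 27.8 ± 1.5 CPM in the vehicle, with 33.6 ± 0.83 CPM at the low dose (SD, n = 3 each). At the high dose 1206 genes (7.02%) differed from the vehicle, 517 (3.01%) higher and 689 (4.01%) lower, or 782 without vehicle replicate 1. All 29 named genes were called there, with the sign they had against the low dose. These comparisons share the high-dose libraries. ID3 had 127, 115 and 129 CPM at the high dose and 237, 238 and 228 CPM in the vehicle, and CCN1 421, 383 and 425 CPM at the high dose and 199, 193 and 220 CPM in the vehicle.

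Aconiti Lateralis Radix Preparata, the other extract of the code set, allowed a test of whether the dose difference itself differed between the roots. The difference between 500 and 20 µg/mL was larger or smaller in Bupleuri Radix than in Aconiti for 7561 genes (44%), with the log2 difference of Bupleuri Radix minus Aconiti above 0 for 3624 (21.1%) and below 0 for 3937 (22.9%) (edgeR interaction contrast, adjusted p under 0.05). Of the 29 named genes, 25 passed. They were picked by the Bupleuri Radix libraries that also enter this contrast, so their share cannot be set against the 44%. CXCL8 had 109, 114 and 100 CPM at the high and 4.38, 3.24 and 4.92 CPM at the low dose of Aconiti, so its dose difference was 3.58 log2 units smaller in Bupleuri Radix (edgeR adjusted p = 7.68e-24). THBD, GREM1 and LIF had dose differences smaller by 2.83, 1.48 and 1.75 log2 units in Bupleuri Radix. The dose differences of ID2, ATOH8 and ID3, below 0 in both roots, were smaller in size in Bupleuri Radix by 1.47, 1.28 and 0.58 log2 units (edgeR adjusted p = 7.05e-15, 1.35e-14 and 2.01e-07). ID2 averaged 5.26 ± 0.0554 CPM at the high and 27.9 ± 1.45 CPM at the low dose of Aconiti (SD, n = 3 each).

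In 4 named genes that passed, the ratios of the dose means lay on opposite sides of 1 in the 2 roots. The dose difference within Aconiti alone was not tested. HAS3 averaged 48.2 ± 1.92 CPM at the high and 29.6 ± 1.76 CPM at the low dose of Bupleuri Radix, and 10.9 ± 0.819 CPM at the high and 23.4 ± 2.17 CPM at the low dose of Aconiti (SD, n = 3 each; difference of the dose differences 1.81 ± 0.101, edgeR adjusted p = 9.99e-21). UNC5B averaged 3.24 ± 0.264 CPM at the high and 5.21 ± 0.516 CPM at the low dose of Bupleuri Radix, and 13.9 ± 1.23 CPM at the high and 4.79 ± 0.907 CPM at the low dose of Aconiti (SD, n = 3 each; -2.22 ± 0.171, edgeR adjusted p = 1.18e-15). DRAXIN and UCA1 were the others, with differences of -1.65 and -1.02, and UCA1 averaged 8.97 ± 0.646 CPM at the high and 7.91 ± 0.3 CPM at the low dose of Aconiti (SD, n = 3 each). The dose differences of F3, ANGPTL4 and ALDH1A3 were larger in Bupleuri Radix by 0.25, 0.32 and 0.25 log2 units (edgeR adjusted p = 0.00196, 0.00687 and 2.88e-06). NPTX1, ALDH1A3-AS1, SAMD11 and SELENOW did not pass, with differences of -0.16 ± 0.207, 0.21 ± 0.112, 0.06 ± 0.0713 and -0.07 ± 0.0711. SELENOW averaged 37.6 ± 0.985 CPM at the high and 64.7 ± 2.6 CPM at the low dose of Bupleuri Radix, and 41 ± 0.408 CPM at the high and 67.1 ± 2.58 CPM at the low dose of Aconiti (SD, n = 3 each). The mitochondrial share was 5.06 to 5.63% at the high dose of Bupleuri Radix and 8.99 to 9.29% at the high dose of Aconiti, and its part in these differences was not tested.

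**Figure D5:**
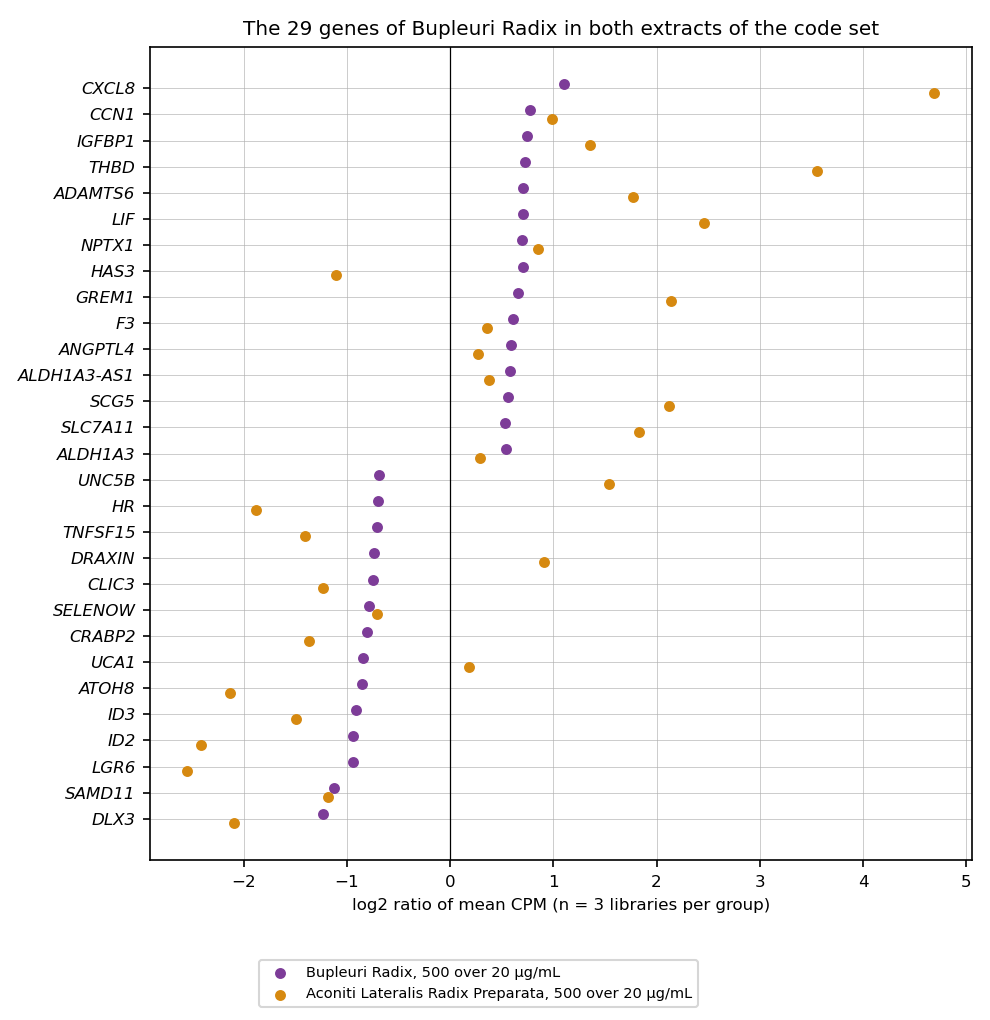
Log2 ratio of the mean CPM at 500 over 20 µg/mL (3 libraries per group) for the 29 named genes in Bupleuri Radix (purple) and in Aconiti Lateralis Radix Preparata (orange). HAS3, UNC5B, DRAXIN and UCA1 lie on opposite sides of 0 in the roots, and the points of SAMD11 and SELENOW nearly coincide.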

How the data were processed

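RNA of SW1783 cells was sequenced by the submitters as 100 bp paired ends from a directional mRNA kit, per the labels' protocols. The deposited table holds expected counts per gene (60675 genes, 60 libraries; 9.22% of values not whole), made by the authors with RSEM 1.3.3 after STAR 2.7.3a, Trim Galore 0.6.5 and FastQC 0.11.9 on hg38, per the submitters' processing notes. The annotation release and strand setting are stated in none of these sources. RSEM divides reads shared between gene copies by estimate, so members of near-identical families are uncertain.

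Expected counts were rounded to whole numbers. In edgeR 4.0.16 (R 4.3.3), 57 libraries of 19 groups were fitted together after filterByExpr and TMM scaling, which left 17190 genes, with quasi-likelihood tests and Benjamini-Hochberg adjustment at 0.05. Log2 fold changes carry the standard error of the fit. The dose difference was compared between the extracts by an interaction contrast. The script was tested on simulated data. Totals were 18.9 to 36.4 M counts over all libraries, and genes of low CPM are the least precise.

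Genes were named as the 15 largest rises and falls under the conditions given with them, and as members of 48 lists, up to 4 per direction with the regulators needed to describe a list. Of the genes the rule takes, 1 fall and some list members are not reported here, though the list counts include them. Further members that complete a list's calls were named after their values were seen. Members and lists were chosen with earlier results of these data known. Gene positions are from GENCODE release 29 and promoter sequences from RefSeq. Alternatives were DESeq2 1.42.0, RLE scaling, other filters, other sets of libraries, a replicate block and each library left out. Code sets are those of the sample names.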

Additional observations from a re-analysis of the deposited data

Results flagged for a closer look

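The dose difference (500 against 20 µg/mL) differed between Bupleuri Radix and Aconiti Lateralis Radix Preparata for 7561 of 17190 genes (44%). The test was the edgeR interaction contrast at an adjusted p under 0.05 with 3 libraries per group. The dose difference also differed for 25 of the 29 named genes. These were picked by Bupleuri Radix libraries that also enter the contrast, so their share cannot be set against the 44%. All values here are differences of log2 fold changes, Bupleuri Radix minus Aconiti. Among the genes that rose with the dose of Bupleuri Radix, the difference was below 0 for CXCL8 (-3.58), THBD (-2.83), LIF (-1.75), SCG5 (-1.56), GREM1 (-1.48), SLC7A11 (-1.30), ADAMTS6 (-1.06), IGFBP1 (-0.61) and CCN1 (-0.21). It was above 0 for HAS3 (1.81), ANGPTL4 (0.32), F3 (0.25) and ALDH1A3 (0.25). Among the genes that fell, it was above 0 for LGR6 (1.60), ID2 (1.47), ATOH8 (1.28), HR (1.20), DLX3 (0.88), TNFSF15 (0.71), ID3 (0.58), CRABP2 (0.57) and CLIC3 (0.48). It was below 0 for UNC5B (-2.22), DRAXIN (-1.65) and UCA1 (-1.02).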

How the results depend on the processing

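For high against low dose the 752 calls ranged from 725 to 899 under DESeq2, RLE scaling, other filters, no mitochondrial genes and set 6 alone, were 959 with only the groups compared, and were 496 to 548 with each library left out. With DESeq2, 690 calls were shared in the same direction. Of 406 results for the 29 named genes under 14 alternatives, 405 kept direction and call; SCG5 lost its call at 0.45 without high-dose replicate 1. For medium against low dose, 7 calls became 22 with DESeq2, 23 with only the groups compared, 15 with set 6 alone, 102 with no filter and 2 to 9 with each library left out. For high against medium dose, 283 calls ranged from 279 to 373, and from 194 to 209 with each library left out. For low dose against vehicle, 13 calls became 33 with DESeq2, 31 with only the groups compared, 26 with set 6 and the vehicle, 116 with no filter and 3 to 12 with each library left out. For high dose against vehicle, 1206 calls ranged from 1138 to 1543, and from 782 to 893 with each library left out. For the comparison of the extracts, 7561 calls ranged from 7079 to 7953. Where a count moved, the cause was not tested. With the replicate number as a block, calls were 846 for high against low, 18 for medium against low, 343 for high against medium and 7708 for the extracts. Same-numbered libraries of the Bupleuri Radix doses correlated by -0.00337 to 0.148 in their deviations. Between the high and the low dose each library correlated best with its own number, at 0.0515, 0.0648 and 0.148. The other pairs of doses were mixed. High-dose replicates 1 and 3 correlated best with their own number at the medium dose (0.113 and 0.0153), but replicate 2 with medium-dose replicate 3 (0.112). Medium-dose replicate 1 correlated best with low-dose replicate 1 (0.0739), but replicates 2 and 3 with low-dose replicates 3 and 2 (0.00455 and 0.0733). What the number stands for is not given, and whether same-numbered libraries share a batch was not tested. No paired analysis was possible for the vehicle because its numbers belong to another set. Depth limits genes of a few CPM, where replicates spread most.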
